A study of Mus musculus with 6 samples.

Results

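The 6 arms of the muscle and mesenchyme hairpins mir-143, mir-145a, mir-1a and mir-133a were read out of small RNA libraries of mouse extracellular vesicles (EVs). These were mmu-miR-143-3p, mmu-miR-143-5p, mmu-miR-145a-5p, mmu-miR-145a-3p, mmu-miR-1a-3p and mmu-miR-133a-3p (written below without the species prefix), chosen by name as listed arms of these hairpins, and they make up 6 of the 1966 mature miRNAs in the count table. The libraries were 3 of colon explant EVs and 3 of EVs from bone marrow dendritic cells (BMDCs), and the question was how far colon EVs carry mesenchyme miRNAs compared with BMDC EVs. All 6 libraries came from mice of the Rab27A fl/fl strain, in which the gene is floxed, and no Cre, no treatment and no age is named in the labels. Colon pieces were cultured for 16 h, and after differential centrifugation fraction 2 of an iodixanol gradient was sequenced. BMDCs were grown for 7 days with GM-CSF in complete RPMI. The labels give the gradient for colon samples alone, whereas the paper describes one for both sources, so whether this step differed is not settled here. The paper describes medium with exosome-depleted serum for the colon explants. For BMDCs it describes complete RPMI, which holds serum, and names no depletion. Source and culture medium thus differed together and cannot be told apart. Any part of serum vesicles in the BMDC EV counts below was not tested. A colon explant holds epithelium, muscle, stroma, vessels and immune cells, so its EVs are a mixture. The labels do not say whether replicates came from separate mice or cultures, and p-values measure only the spread between these libraries.

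mir-143 and mir-145 are made from one cluster that smooth muscle cells and fibroblasts express strongly, and in the intestine they are known as miRNAs of the mesenchyme rather than of the epithelium. mir-1 and mir-133a are the classical miRNAs of skeletal and cardiac muscle, where they act on the differentiation and growth of muscle cells. Each hairpin is cut into a 5p and a 3p arm, of which one is usually kept and loaded, and a small vesicle preparation samples the miRNAs of whatever cells shed into the medium.

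The miRNAs set beside miR-143-3p below are the 2 tested 3p arms of other mesenchyme hairpins and the 3 tested miRNAs with the profile nearest to it. Their mature sequences are given from RefSeq on GRCm38.p6, 5′ to 3′, with the seed (bases 2 to 8) in capitals. No 2 of these 5 share a seed.
mmu-miR-199a-3p: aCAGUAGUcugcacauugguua
mmu-miR-140-3p: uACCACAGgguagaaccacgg
mmu-miR-182-5p: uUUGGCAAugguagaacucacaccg
mmu-miR-10b-5p: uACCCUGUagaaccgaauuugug
mmu-miR-192-3p: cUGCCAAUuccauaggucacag
miR-199a-3p is cut from Mir199a-2 (chr1:162217883-162217904, plus strand) and Mir199a-1 (chr9:21496498-21496519, minus strand), and miR-199b-3p from Mir199b (chr2:32318524-32318545, plus strand) has the same letters, so reads of these names cannot be told apart. miR-140-3p lies at chr8:107551288-107551308, plus strand, within an exon of Wwp2.

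Total counts were between 173358 and 645303 in colon EVs and between 83997 and 178454 in BMDC EVs. A floor of 3 counts was therefore 4.65 to 17.3 CPM (counts scaled to the library total) in a colon EV library and 16.8 to 35.7 CPM in a BMDC EV library, so low miRNAs were harder to see in BMDC EVs. Counts need not be whole, and intervals and floors given here cover counting error only. Of the 829 miRNAs with a count in any library, 220 reached 10 counts in 3 or more libraries and were tested. Only 1 of the 6 members, miR-143-3p, passed this filter, with at least 10 counts in 3 colon EV libraries and 1 BMDC EV library. The 3 colon EV libraries alone were enough for it to pass, so the filter favored a difference in this direction. The other 5 members are described by their counts.

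miR-143-3p, the dominant arm of its hairpin, was enriched in colon EVs. Its level was 1736, 1221 and 1130 CPM in colon EV replicates 1, 2 and 3. In BMDC EVs it was 51.3, 83.3 and 78.5 CPM, from 6.5, 7 and 14 counts. Every colon EV library stood above every BMDC EV library, and the gap between the groups was wider than the range within either. After normalization the mean was 311 ± 101 counts in colon EVs and 11.5 ± 3.48 counts in BMDC EVs (SD, n = 3). The log2 fold change was 4.76 (SE 0.374), or 27.1-fold, with an adjusted p of 1.49e-09 from the quasi-likelihood test of edgeR, adjusted by Benjamini-Hochberg over the 220 tested miRNAs. At an adjusted p under 0.05, the 1 tested member was called higher in colon EVs, and the other 5 of the 6 members were not tested. Of the 220 tested miRNAs, 36.4% were called higher in colon EVs and 40.5% higher in BMDC EVs. miR-143-3p also passed with the study's base level of at least 100 added, taken here as a mean over all libraries of its normalized counts, which 21.8% of tested miRNAs did in the colon direction. Groups that do not overlap in this direction were found for 31.8% of tested miRNAs. A call of this kind was thus common among the tested miRNAs. By fold change, miR-143-3p took place 24 among the 80 miRNAs called higher in colon EVs, whose median log2 fold change was 3.07. In these bulk vesicle preparations, fewer vesicles of a cell type and less miRNA per vesicle cannot be told apart.

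**Figure D1:**
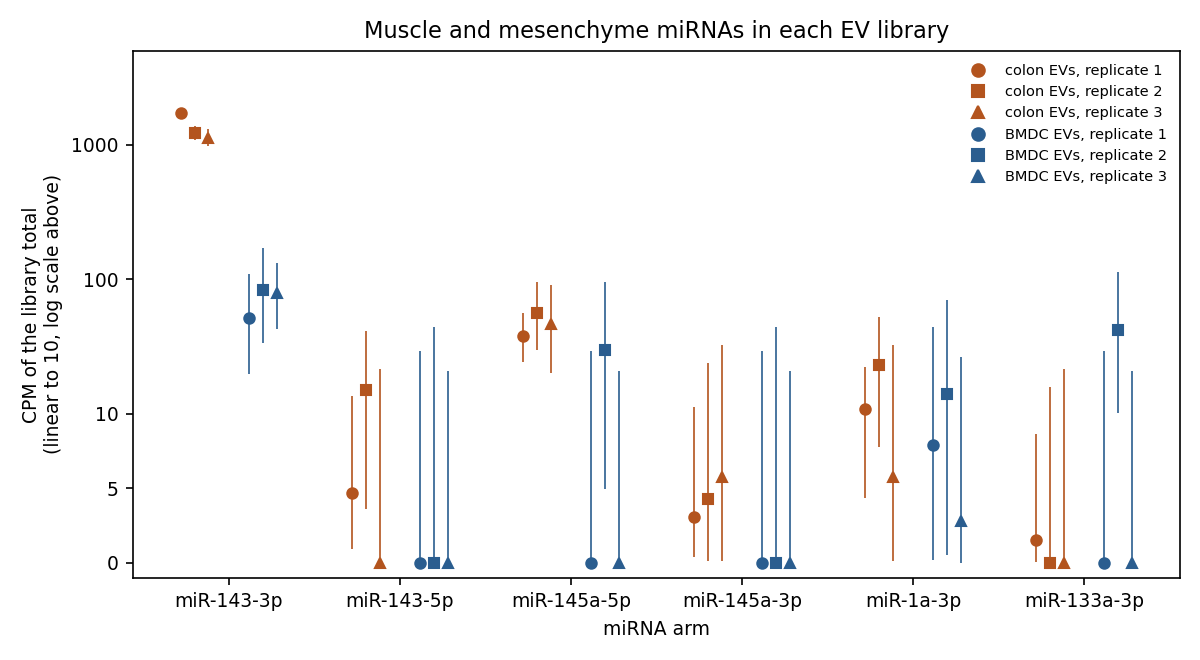
CPM of each of the 6 miRNA arms in each library, with the axis linear up to 10 CPM and logarithmic above; colors mark the EV source, shapes the replicate, and bars the 95% exact Poisson interval of the count. miR-143-3p was at 1130 to 1736 CPM in colon EVs and 51.3 to 83.3 CPM in BMDC EVs, while the other 5 arms lay below 100 CPM in every library.

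miR-143-3p was among the more abundant miRNAs of colon EVs. By counts it took rank 48 of 577 miRNAs with a count in colon EV replicate 1, 57 of 468 in replicate 2 and 59 of 446 in replicate 3. In the BMDC EV libraries it took ranks 233, 210 and 197, among 382 to 464 miRNAs with a count. Its rank in every colon EV library was higher than in any BMDC EV library.

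The other arm of the hairpin, miR-143-5p, was barely seen. It had 3, 3.5 and 0 counts in the colon EV libraries and 0 in all 3 BMDC EV libraries. In the pooled colon EV counts it was 0.405% of the counts of its hairpin (95% exact binomial interval 0.156 to 0.854). In BMDC EVs the 27.5 pooled counts of the hairpin allow a 5p share of up to 12.6%, so no difference in arm use could be seen at this depth.

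miR-145a-5p, the main arm of mir-145a and known for its part in the smooth muscle phenotype, was present in colon EVs at a far lower level than its cluster partner. It had 24.2, 13 and 8 counts in colon EVs, or 37.5, 55.9 and 46.1 CPM. In BMDC EVs it had 0, 2.5 and 0 counts, and the 2.5 counts in replicate 2 were 29.8 CPM. The groups did not overlap, but replicate 2 of BMDC EVs lay close to the lowest colon EV library. The mean was 46.5 ± 9.19 CPM in colon EVs and 9.92 ± 17.2 CPM in BMDC EVs (SD, n = 3), and an exact two-sided permutation test over libraries gave p = 0.1, the smallest that 3 against 3 libraries can give. Pooled over libraries, the ratio of colon EVs to BMDC EVs was 6.69 (95% counting interval 1.97 to 41.6). The other arm, miR-145a-3p, had 2, 1 and 1 counts in colon EVs and 0 in every BMDC EV library, which is 8.13% of the pooled mir-145a counts of colon EVs (95% exact binomial interval 2.26 to 19.5).

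The annotation of GRCm38 places both hairpins on the minus strand of chromosome 18, Mir143 at chr18:61649196-61649258 and Mir145a at chr18:61647825-61647894, with 1301 bases between them and no annotated gene over either. Although they are neighbors, miR-143-3p had 46.3, 21.9 and 24.5 counts per count of miR-145a-5p in colon EV replicates 1, 2 and 3. In BMDC EV replicate 2, the only BMDC EV library with a miR-145a-5p count, it had 2.8. With 0.5 counts added to both, the log2 ratio was 4.81 ± 0.604 in colon EVs and 3.33 ± 1.82 in BMDC EVs (SD, n = 3), and the difference of 1.48 did not pass an exact two-sided permutation test (p = 0.3). Without BMDC EV replicate 2 the difference was 0.478, and without BMDC EV replicate 3 it was 2.25, so this value rests on single libraries of few counts.

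The striated muscle miRNAs among the members had few counts in both sources. miR-1a-3p had 7, 5.33 and 1 counts in colon EVs, or 10.8, 22.9 and 5.77 CPM. In BMDC EVs it had 1, 1.17 and 0.5 counts, or 7.89, 13.9 and 2.80 CPM. The groups overlapped, an exact two-sided permutation test of the CPM gave p = 0.6, and the pooled ratio of 1.85 had a counting interval from 0.485 to 11.5 that spans no difference. miR-133a-3p, which is cut from the same primary transcripts as miR-1a-3p, had 1 count in colon EV replicate 1, 3.5 counts in BMDC EV replicate 2 and 0 in the other 4 libraries. Each of these miRNAs comes from a pair of loci, Mir1a-1 (chr2:180389048-180389124, plus strand) with Mir133a-2 (chr2:180398379-180398482, plus strand), and Mir1a-2 (chr18:10785481-10785552, minus strand) with Mir133a-1 (chr18:10782909-10782976, minus strand), the latter both within an intron of Mir133a-1hg and antisense to an intron of Mib1, with Mir1b antisense over Mir1a-2. A mature count does not say which locus was used.

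Together the 6 members held a small share of the libraries, and in colon EVs most of it was miR-143-3p. Their share was 0.179%, 0.132% and 0.119% of all counts in colon EV replicates 1, 2 and 3. In BMDC EVs it was 0.00591%, 0.0169% and 0.00813%. The mean was 0.143 ± 0.0319% in colon EVs and 0.0103 ± 0.00579% in BMDC EVs (SD, n = 3), with no overlap. miR-143-3p was 92.6 to 96.8% of the members' counts in the colon EV libraries, so there the share of the group is in effect that of 1 miRNA. In the BMDC EV libraries it was 49.4 to 96.6%. The lowest value was in replicate 2, with 14.17 member counts, which also had the highest members' share of the BMDC EV libraries.

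The marker miRNAs of other cell types were read in the same libraries. The 9 epithelial markers, among them the miR-200 family and miR-192-5p, held 25.1 ± 4.14% of colon EV counts and 0.612 ± 0.213% of BMDC EV counts (SD, n = 3), and 9 of 9 were called higher in colon EVs with a median log2 fold change of 5.92, against a median of -0.19 over all tested miRNAs. One of them, miR-375-3p, reached 10 counts in colon EV libraries alone, so a difference was built into its passing, and without it 8 of 8 were called with a median of 5.93. The 8 hematopoietic markers, among them miR-155-5p, held 0.882 ± 0.345% and 31.6 ± 0.973%, and 8 of 8 were called higher in BMDC EVs with a median of -4.65. Over all tested miRNAs, 36.4% were called higher in colon EVs and 40.5% in BMDC EVs. Colon EVs thus held more of the listed epithelial markers and BMDC EVs more of the hematopoietic ones. The lists were chosen with earlier results of these data known, so this is a description only. For each count of a member there were 167, 171 and 192 epithelial marker counts in the colon EV libraries and 112, 47.1 and 46.5 in the BMDC EV libraries. Epithelial markers were therefore also present in BMDC EVs and moved in the same direction as miR-143-3p, and their part in the result was not tested. Hematopoietic markers differed between the colon EV libraries, with 0.518%, 0.923% and 1.20% of all counts in replicates 1, 2 and 3, the library with the lowest share being the one with the highest miR-143-3p, and their part in its level was not tested. Red cell markers held 0.00256 ± 0.0026% of colon EV counts and 0.00307 ± 0.00173% of BMDC EV counts (SD, n = 3), and 0 of 3 passed the filter. The 2 listed neuronal markers did not pass it either, and held 0.00376 ± 0.00115% of BMDC EV counts (SD, n = 3) and at most 5.11e-05% of any colon EV library. This BMDC EV share is in effect that of miR-9-3p, with 13.41 pooled counts beside 0.5 for miR-124-3p. The other arm, miR-9-5p, was not listed and had a log2 fold change of -5.09 (adjusted p 2.49e-11 by edgeR). Whether these counts have a neuronal source was not tested.

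**Figure D2:**
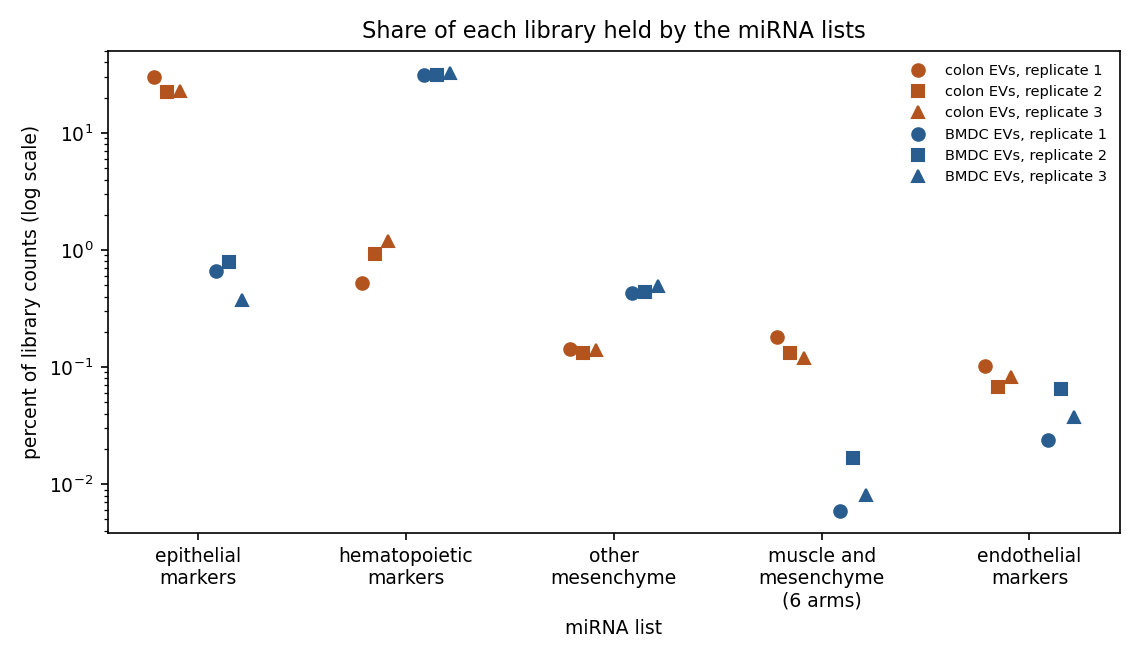
Percent of all counts of a library, on a log scale, held by each miRNA list, with colors for the EV source and shapes for the replicate. The 6 muscle and mesenchyme arms held 0.119 to 0.179% of colon EV counts, far below the epithelial markers at 22.6 to 29.9%, and 0.00591 to 0.0169% of BMDC EV counts.

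Of the 2 endothelial markers, both were called higher in colon EVs, as were 36.4% of all tested miRNAs. However, miR-126a-5p passed the filter through colon EV libraries alone, so a difference was built into its passing. miR-126a-3p, an endothelial miRNA that signals in vessel growth, was 756 ± 146 CPM in colon EVs and 409 ± 206 CPM in BMDC EVs (SD, n = 3), and its log2 fold change was 1.40 with an adjusted p of 0.00144 by edgeR. The libraries overlapped, since BMDC EV replicate 2 at 634 CPM stood above colon EV replicate 2 at 606 CPM. The ratio of miR-143-3p to miR-126a-3p within a library was 1.94, 2.01 and 1.48 in colon EVs. In BMDC EVs it was 0.222, 0.131 and 0.217. The mean log2 ratio was higher in colon EVs by 3.21, with p = 0.1 in the exact two-sided permutation test. Against miR-192-5p the order turned, with a log2 ratio of -5.80 ± 0.130 in colon EVs and -4.53 ± 0.720 in BMDC EVs (SD, n = 3), a difference of -1.27 (exact permutation p = 0.1). Against miR-155-5p, the difference was 9.81 (exact permutation p = 0.1). Each of these 2 miRNAs alone separated the sources, in opposite directions, so this p could only be the smallest possible and adds no evidence. miR-143-3p reached 1.32 counts per count of miR-155-5p in colon EV replicate 1 against 0.386 and 0.278 in the other 2 colon EV libraries. In all, 7 such permutation tests were run, of 5 ratios and of the CPM of miR-145a-5p and miR-1a-3p. Adjusted over the 7, their p-values were 0.14 where the raw p was 0.1, 0.35 where it was 0.3 and 0.6 for miR-1a-3p, so none passed.

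Other mesenchyme miRNAs differed in direction by hairpin. Of 8 listed arms of mir-199, mir-214 and mir-140, 3 passed the filter. Of these, 1 arm of mir-199 was called higher in colon EVs and the 2 arms of mir-140 in BMDC EVs. Over all tested miRNAs, 36.4% and 40.5% were called in these directions. Untested arms had few pooled counts, with 10.5 in colon EVs and 0 in BMDC EVs for miR-199a-5p, 4 and 0 for miR-199b-5p, and 1 and 0 for miR-214-3p. miR-199b-3p and miR-214-5p had no count. miR-199a-3p, a miRNA of fibroblasts and other mesenchymal cells, was 284, 198 and 161 CPM in colon EVs and 26.8, 81.3 and 72.8 CPM in BMDC EVs, with no overlap. Its log2 fold change was 2.35 (SE 0.506) with an adjusted p of 0.000374 by edgeR. As for miR-143-3p, the 3 colon EV libraries alone were enough for miR-199a-3p to pass the filter. miR-140-3p, best known from cartilage, went the other way, with 950, 1025 and 1099 CPM in colon EVs and 3673, 3867 and 4160 CPM in BMDC EVs. Its log2 fold change was -1.48 (SE 0.207, adjusted p 3.56e-06 by edgeR). miR-140-5p had a log2 fold change of -1.65 (SE 0.385, adjusted p 0.000708 by edgeR). As a share, the 8 arms held 0.138 ± 0.00502% of colon EV counts and 0.453 ± 0.0355% of BMDC EV counts (SD, n = 3), the reverse of the 6 members. This share is in effect that of mir-140. Pooled BMDC EV counts were 1533 for miR-140-3p, 236 for miR-140-5p, 23.2 for miR-199a-3p and 0 for the other 5 arms. In colon EVs these 3 arms had 1042, 151.5 and 257 pooled counts.

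Within a library, miR-143-3p had 6.11, 6.15 and 7.04 counts per count of miR-199a-3p in colon EVs. In BMDC EVs it had 1.91, 1.02 and 1.08. The mean log2 ratio was 2.67 ± 0.107 in colon EVs and 0.33 ± 0.449 in BMDC EVs (SD, n = 3), a difference of 2.34 or 5.07-fold, with no overlap and p = 0.1 in the exact two-sided permutation test. These ratios do not depend on the scaling of the libraries.

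**Figure D3:**
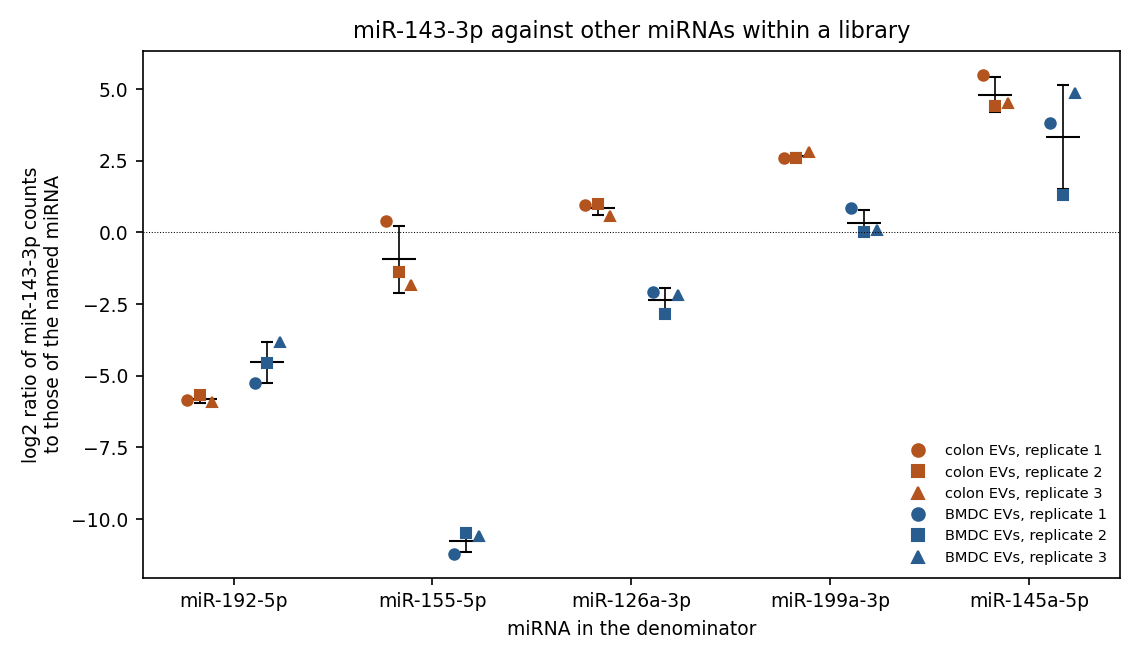
Log2 ratio of the counts of miR-143-3p to those of 5 other miRNAs in each library, with 0.5 counts added to both; colors mark the EV source, shapes the replicate, and black bars the mean and SD of 3 libraries. The ratio was higher in colon EVs than in BMDC EVs in every library for miR-155-5p, miR-126a-3p and miR-199a-3p, lower for miR-192-5p, and overlapping for miR-145a-5p.

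Of the other muscle miRNAs, among them arms of mir-133b, mir-206, mir-208, mir-490 and mir-499, 0 of 15 passed the filter and 9 of 15 had no count in any library. Of all 1966 miRNAs, 829 had a count in any library and 220 passed the filter. Most miRNAs thus had no count, and these shares are not particular to muscle miRNAs. miR-206-3p, a skeletal muscle miRNA, had 4, 1 and 3 counts in colon EVs and 2, 0 and 26 counts in BMDC EVs. Its 26 counts in BMDC EV replicate 3 were 146 CPM, above the level of miR-143-3p in that library. The list as a whole held 0.0017 ± 0.00153% of colon EV counts and 0.00617 ± 0.00754% of BMDC EV counts (SD, n = 3), the latter mainly through replicate 3 at 0.0146%.

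The tested miRNAs nearest to miR-143-3p over the 6 libraries, by the root mean square difference of centered log2 CPM, were miR-182-5p (0.155, r = 0.998), miR-10b-5p (0.236, r = 0.995) and miR-192-3p (0.274, r = 0.994), the last from the hairpin of the epithelial marker miR-192-5p. Their log2 fold changes were 4.55, 5.04 and 5.53, beside 4.76 for miR-143-3p, and miR-10b-5p and miR-192-3p were under 10 counts in every BMDC EV library. The 6 points form 2 groups and share the difference between the sources, so these correlations are given as a description. Within colon EVs, miR-182-5p was also highest in replicate 1, at 17187 CPM against 13690 and 13735 CPM in replicates 2 and 3.

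**Figure D4:**
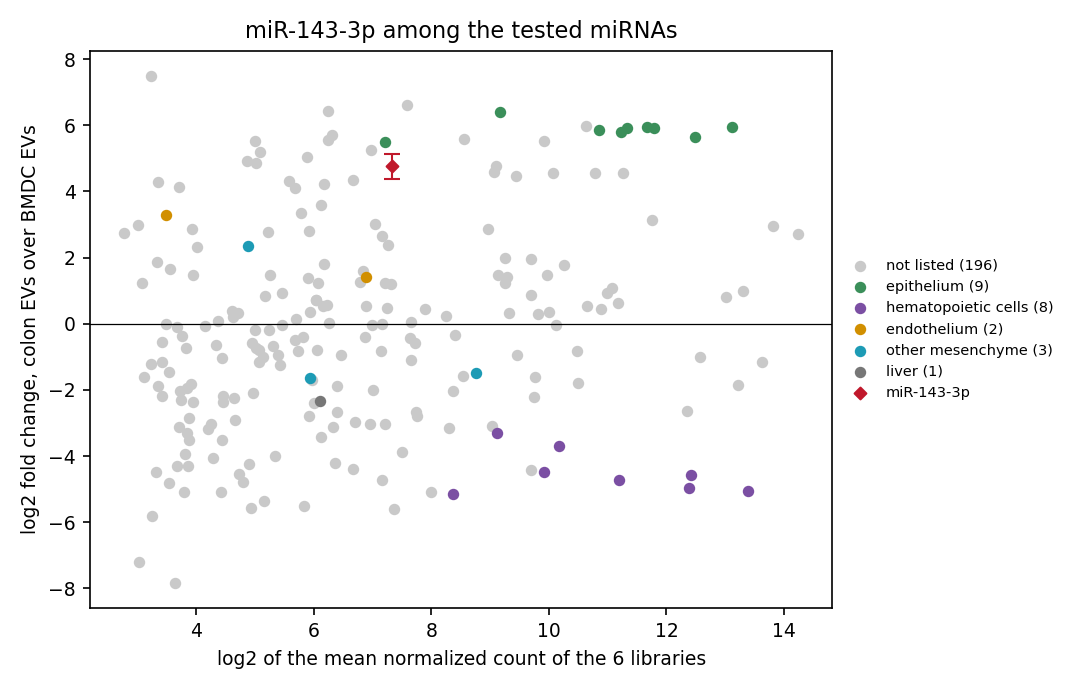
Log2 fold change of colon EVs over BMDC EVs of the 220 tested miRNAs against the log2 of their mean normalized count in the 6 libraries, with the listed miRNAs in color and the SE of miR-143-3p as a bar. miR-143-3p lay at 4.76, below the epithelial markers with a median of 5.92 and above the 3 other mesenchyme miRNAs at 2.35, -1.48 and -1.65.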

How the data were processed

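Small RNA libraries of colon explant EVs and BMDC EVs, 3 of each, were grouped and numbered from the sample labels, and every column of the table was matched to a library (0 unmatched). The values the authors deposited are estimated counts of each mature miRNA, without normalization and not always whole. The submitters' processing notes name STAR 2.7.6a, featureCounts 1.6.3, DESeq2 1.30.1 and the builds GRCm38 and mm10. The miRNA annotation and the handling of molecular identifiers and of reads matching several miRNAs are not given in the sources used here, so counts of similar miRNAs are uncertain.

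Counts were rounded to whole numbers and compared in R 4.3.3 with edgeR 4.0.16 (TMM, quasi-likelihood test, Benjamini-Hochberg adjustment, no block) over all miRNAs that reached 10 counts in 3 or more libraries. The step was tested on simulated data. It called 21 of 22 miRNAs changed by a log2 of 2, 30 of 30 changed by 4 and 3 of 185 left unchanged. Fewer miRNAs changed there than were called here, and all had the same dispersion. The simulation therefore does not test the scaling where most miRNAs differ. Normalized counts are TMM-scaled to the mean depth of the 6 libraries (geometric mean). Ratios added 0.5 counts. Shares and CPM used the deposited values. Hairpin positions are from GENCODE vM21 on GRCm38 and mature sequences from RefSeq.

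All 6 members are named, with the 3 nearest profiles (prior count 2), the tested miRNAs of the list of other muscle and mesenchyme miRNAs, and the most abundant tested marker of each marker list in colon EVs. miR-206-3p was named after its values were seen. Members, lists and tests were chosen with earlier results of these data known. Replicates of one source differed by more than sampling noise (chi-square per degree of freedom at least 6.25). Alternatives were DESeq2 1.42.0, limma 3.58.1 with voom, other scalings and filters, robust dispersion, unrounded counts, the replicate block and each library left out. The base level cutoff without a fold boundary, and the marker lists without markers that passed in 1 source alone, were added after the data were seen.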

Additional observations from a re-analysis of the deposited data

How the results depend on the processing

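The log2 fold change of miR-143-3p kept its direction and stayed past the threshold under all 17 alternatives, between 4.29 (library size alone) and 5.31 (no count filter), with adjusted p-values up to 5.23e-06; leaving out each library in turn gave 4.46 to 4.99, and DESeq2 gave 4.91. Same-numbered libraries of the sources had correlations of their deviations from -0.145 to -0.0596. Deviations from the mean of so few libraries are tied to each other, so these values cannot decide whether replicate numbers pair the libraries. With the replicate block the log2 fold change of miR-143-3p was 4.71 (adjusted p 7.58e-19 by edgeR). Its SE was 0.408 there and 0.374 in the main fit, so the smaller p-value is not stronger evidence. The count of members called higher in colon EVs was 2 in place of 1 with no count filter, and 2 with a filter on 2 libraries, which was chosen after seeing the data. The added member was miR-145a-5p, with log2 fold changes of 3.82 (adjusted p 0.000927) and 3.48 (adjusted p 0.00271) by edgeR, and it passed the second filter through colon EV libraries alone, so that a difference was built into its passing. Without a filter, the other 4 members had adjusted p-values of 0.131 to 0.344. With epithelial marker counts taken out of the denominator, also chosen after seeing the data, the members' share in colon EVs was 0.193%. The difference of the miR-143-3p to miR-145a-5p ratio was 2.09 with 1 count added and 0.478 to 2.25 with a library left out. Scaling by library size alone moved the median of all miRNAs by -0.47. The calls of the 7 other named miRNAs did not change. Shares use unrounded values, and rounding was run as their alternative. Arm use could not be tested, since for 0 member hairpins both arms passed the filter. Depth limits the 5 members other than miR-143-3p.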

Other observations

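The liver marker miR-122-5p was at 106 ± 33.6 CPM in colon EVs and 705 ± 120 CPM in BMDC EVs (SD, n = 3). Its log2 fold change was -2.32 and it stood above miR-143-3p in every BMDC EV library. Of the muscle miRNAs outside the 6 members, miR-208b-3p, an arm from a cardiac muscle gene, had 3 counts in BMDC EV replicate 1 and 0 in the other 5 libraries.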
